A study of Mus musculus with 4 samples.

Results

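The heat shock proteins and their DnaJ co-chaperones were described in CD8α+ and CD8α− dendritic cells of the mouse spleen. Members were the probe sets whose only gene symbol in the platform annotation began with Hsp or with Dnaja, Dnajb or Dnajc followed by a number, plus the heat shock factors Hsf1 and Hsf2, leaving out the endoplasmic reticulum (ER) chaperones Hspa5 and Hsp90b1. This pattern took 168 of 45037 probe sets, which belong to 70 of 18194 named genes. A filter on dim probe sets left 116 member probe sets and 54 member genes to be tested. Of these genes, 3 (Dnajc16, Dnajc28 and Hspb2) reached the filter only through the CD8α+ arrays and 2 (Hsf2 and Hspg2) only through the CD8α− arrays. The pattern used names and no measured value. It also took Hspg2, the gene of the basement membrane proteoglycan perlecan, and Hspb11, known as the intraflagellar transport protein IFT25. Neither is known as a chaperone, and both are counted here as members. Hsp90ab1 and Hsf1 were not analysed here.

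Hsp70 proteins bind unfolded stretches of other proteins in a cycle of ATP hydrolysis. DnaJ proteins, also called J proteins, deliver the substrate and start the hydrolysis, and Hsp110 proteins and other exchange factors release the nucleotide. Hsp90 acts on clients that are already partly folded, the chaperonin Hspd1 with its lid Hspe1 encloses proteins of the mitochondrion, and small heat shock proteins hold unfolded protein without ATP. Heat shock factor 1 induces many of these genes when unfolded protein accumulates in the cytosol, whereas unfolded protein in the ER induces a separate group of chaperones.

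CD8α+ dendritic cells belong to the conventional type 1 lineage, known for presenting antigens of dying cells to CD8 T cells, and CD8α− dendritic cells of the spleen are mostly of the conventional type 2 lineage. Cells of both populations came from the spleen of C57BL/6 mice, with no treatment named in the labels, and 2 arrays per population (4 in all) were hybridised to Affymetrix Murine Genome 430 2.0 chips. The labels name no age, and they do not say whether replicate arrays stem from different mice, so p-values cover the array-to-array spread alone, part of which may be technical. The comparison asks which chaperone genes are expressed differently in CD8α+ and CD8α− cells.

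Lineage markers lay on the side of their label. All 9 tested of 10 markers of the type 1 lineage were brighter in CD8α+ cells, with a median log2 difference of 3.13, and Cd8a itself was at least 69.4-fold brighter. Cd8a defines the populations, so its difference is no separate support for the labels. The 6 tested of 8 markers of the type 2 lineage were dimmer in CD8α+ cells, with a median of -2.31. Markers of other cells differed between the groups in both directions. The 5 tested of 6 NK cell markers summed to 330.3 and 466.2 signal units on the CD8α+ arrays, against 2089 and 1135 on the CD8α− arrays, and 4 of the 5 were below 0 in difference. Monocyte markers (2 of 4) summed to 2190 and 2245 against 3488 and 4574, and neutrophil markers (3 of 5) to 6353 and 6949 against 12650 and 9216, with every tested member below 0. Macrophage markers (3 of 6) summed to 397.1 and 466.5 against 479.6 and 617.4 but went both ways, with Vcam1 at 2.48, Adgre1 at -2.48 and C1qb at -3.12. Plasmacytoid dendritic cell markers (4 of 4) summed to 877.1 and 1010 against 1474 and 2226, mostly from Tcf4 (-1.06), and 2 of the 4 were above 0. B cell markers (2 of 5) summed to 165.7 and 186.4 against 113.1 and 182.1, with Ms4a1 at 1.45 and Cd79b at -1.02, and T cell markers (3 of 5) to 295.9 and 495.3 against 389.6 and 294.3, with 2 of 3 above 0. Not every tested marker was above background on every array, and C1qb was above it on neither CD8α+ array. Some markers reached the filter on dim probe sets only through the group where they are bright. Among them were Cd8a through the CD8α+ arrays, and C1qb and Ncr1 through the CD8α− arrays. The sides on which these markers lie are no support for the labels. The part of these cells in the differences below was not tested, and fewer cells of a type cannot be told apart from less RNA per cell.

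CD8α− replicate 2 stood apart from the other arrays. The 3′ to 5′ signal ratio of its Gapdh controls was 10.7, whereas that ratio was 1.53 and 1.56 on the CD8α+ arrays and 2.02 on CD8α− replicate 1. Its Actb controls went the other way, with a ratio of 0.759, whereas the CD8α+ arrays had 1.69 and 1.62 and CD8α− replicate 1 had 1.67. Over all tested probe sets, log2 signals correlated at 0.955 between the CD8α+ arrays and at 0.835 between the CD8α− arrays. CD8α− replicate 1 was closer to the CD8α+ arrays, at 0.861 and 0.871, than to CD8α− replicate 2. For CD8α− replicate 2 the correlations with the CD8α+ arrays were 0.788 and 0.802. The CD8α− arrays thus did not group together, which limits every difference below. Of the 54 member genes, 1 differed by over 1 log2 unit between the CD8α+ arrays and 19 between the CD8α− arrays. These shares, 1.85% and 35.2%, stood beside 7.67% and 29.7% of all tested genes. The part of RNA quality in the member differences was not tested. Differences against each CD8α− array are therefore given separately for some genes, and genes without them may diverge as well. Differences are log2 signals in CD8α+ cells minus CD8α− cells after quantile normalization, ± the standard error of the limma fit with n = 2 arrays per group, and adjusted p-values run over all 22519 probe sets tested.

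No member passed the threshold, and more members leaned towards CD8α+ than towards CD8α− cells. At an adjusted p under 0.05 limma called 0 of 116 member probe sets, and 0 of all 22519 (0.0%), the lowest member value being 0.170. At an unadjusted p under 0.05, 8 of the 54 member genes were higher in CD8α+ cells and 2 were lower, 14.8% and 3.70%, where 7.13% and 8.82% of all tested genes were. Of these 10 genes, 1 (Dnajc16) had reached the filter through the CD8α+ arrays alone. Hspa1a and Hspa1b, both among the 8, are near-identical copies and may not be separate measurements. Member probe sets gave 15 higher and 4 lower, 12.9% and 3.45%, beside 7.75% and 7.79% of all probe sets. Scaling moved this split: member genes gave 10 higher and 1 lower with signals as deposited, 7 and 4 after scaling to a common trimmed mean, and 23 and 1 after centring on the median. Over all probe sets, 1746 higher and 1754 lower became 2310 and 454, 1280 and 3784, and 6018 and 855 under the same 3 scalings. The median difference of the member genes was 0.19, beside -0.02 for all tested genes. Above 0 were 37 members and below it 17, where 5151 of all 10532 tested genes were above 0 and 5381 below. Dnajc16, Dnajc28 and Hspb2, above 0, and Hsf2 and Hspg2, below it, had reached the filter through 1 group only. The groups did not overlap for 16 member genes in the higher direction and for 9 in the lower one (29.6% and 16.7%), against 25.6% and 28.3% of all tested genes. For member probe sets these shares were 30.2% and 15.5%, against 26.1% and 26.2% of all probe sets. Fits that leave out 1 array take their spread from the other group alone. That is the divergent CD8α− arrays where a CD8α+ array is left out, and the close CD8α+ arrays where a CD8α− array is. The counts of all these fits are therefore no result about the members. Without CD8α− replicate 1 the member median was 0.17, where that of all tested genes was -0.11. Without CD8α− replicate 2 these medians were 0.09 and -0.01.

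**Figure D1:**
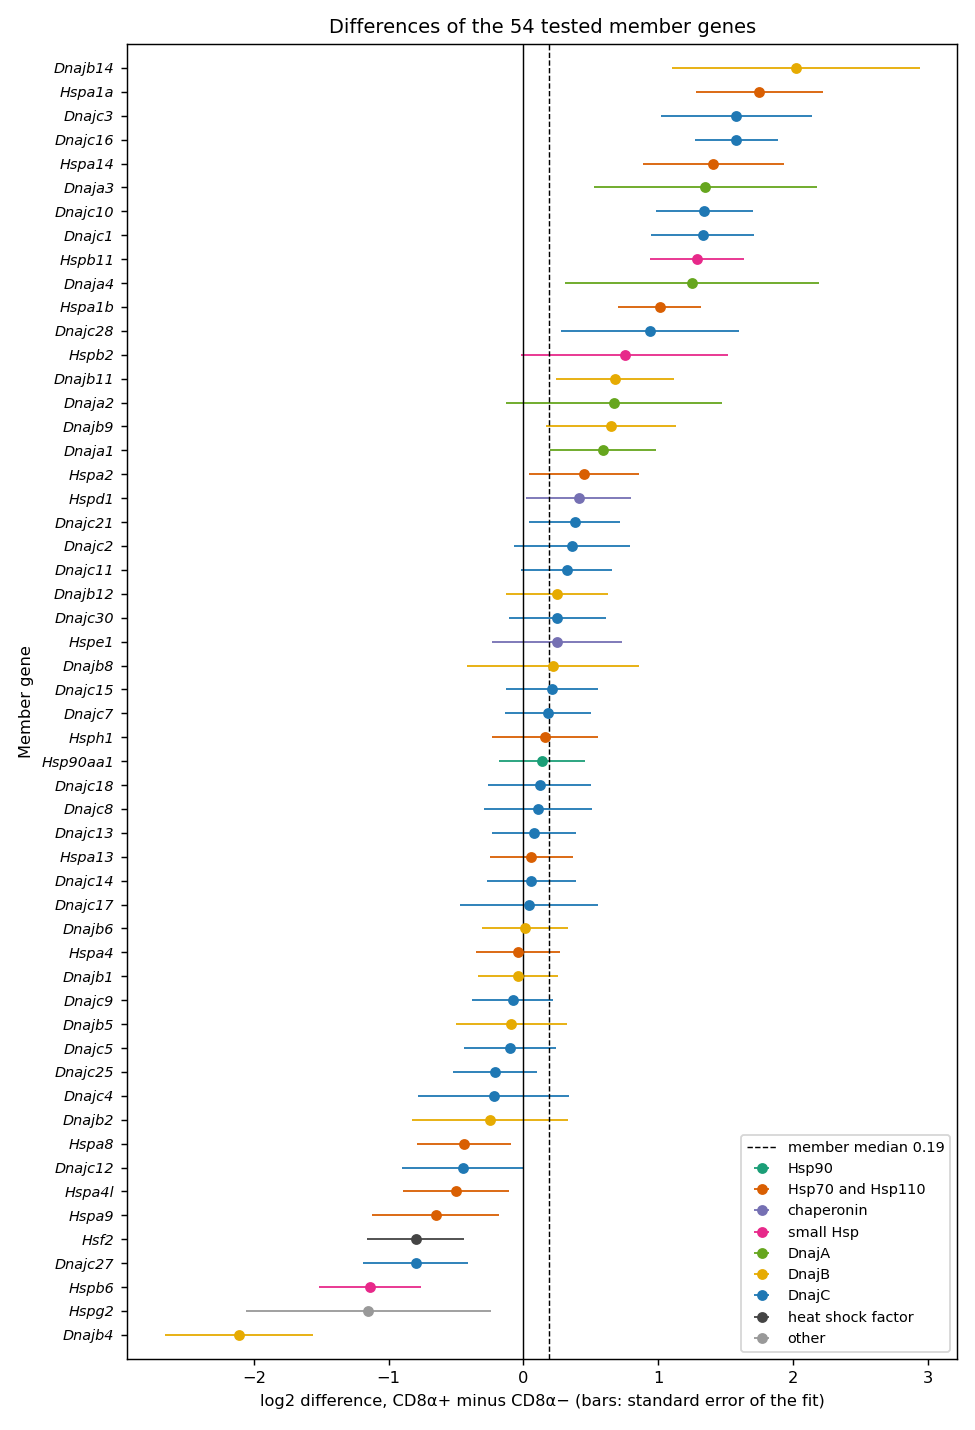
Fitted log2 differences (x axis, CD8α+ minus CD8α−) of the 54 tested member genes (y axis), coloured by class, with bars for the standard error and a dashed line at the member median of 0.19. Dnajb14 stands at the top with 2.02 and Dnajb4 at the bottom with -2.11, and 37 genes lie above 0. Of all 10532 tested genes, 5151 were above 0.

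The inducible Hsp70 genes Hspa1a and Hspa1b were brighter in CD8α+ cells on all 4 of their probe sets. Hspa1a had normalized signals of 467 and 427 in CD8α+ cells, against 91.9 and 191 in CD8α− cells. The log2 levels averaged 8.80 ± 0.09 in CD8α+ cells and 7.05 ± 0.75 in CD8α− cells (SD, n = 2 each), a difference of 1.75 ± 0.47 or 3.37-fold, with an adjusted p of 0.234. Both CD8α+ arrays lay above both CD8α− arrays. Hspa1b on its representative probe set read 4000 and 3680 in CD8α+ cells, against 1770 and 2050 in CD8α− cells, a difference of 1.01 ± 0.31 or 2.01-fold with an adjusted p of 0.270. Its other probe sets differed by 1.62 ± 0.40 and 2.23 ± 0.65, with adjusted p-values of 0.212 and 0.254. None of the 4 probe sets overlapped between the groups. The difference was present against each CD8α− array, at 2.28 and 1.22 for Hspa1a and at 1.11 and 0.90 for Hspa1b against CD8α− replicates 1 and 2. Hspa1a and Hspa1b are near-identical copies, so their probe sets may read both transcripts and are uncertain as separate measurements.

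The stretches before the start of both genes are shown because the pair is the Hsp70 part of the result and because heat shock factor 1 is known to act through short repeats near the start. Promoter windows came from RefSeq (GRCm38.p6), with 250 bases before and 50 after the start, and matched 57 of the 70 member genes. The 250 bases before the start are printed 5′ to 3′ along the gene's strand, with heat shock elements of 2 repeat units (GAANNTTC or TTCNNGAA, searched on both strands, which the motifs' symmetry makes the same) in capitals.
Hspa1a (chr17:34972157-34972406, - strand): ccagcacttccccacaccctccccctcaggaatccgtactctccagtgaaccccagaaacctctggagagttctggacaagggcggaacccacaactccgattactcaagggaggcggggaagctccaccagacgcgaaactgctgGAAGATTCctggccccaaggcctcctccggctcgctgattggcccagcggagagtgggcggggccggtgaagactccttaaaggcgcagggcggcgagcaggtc
Hspa1b (chr17:34959239-34959488, - strand): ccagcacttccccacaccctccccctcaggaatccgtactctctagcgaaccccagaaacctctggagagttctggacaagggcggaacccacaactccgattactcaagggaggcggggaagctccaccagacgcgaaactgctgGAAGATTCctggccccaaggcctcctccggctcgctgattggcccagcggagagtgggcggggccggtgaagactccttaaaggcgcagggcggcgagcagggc
Both stretches are the same in 247 of 250 bases, and each holds 1 such element, beginning at position -104 from the start. Such elements were found in 18 of 74 member windows (24.3%), which belong to 16 genes, beside 15.1% of all 32851 windows of 300 bases. A match is a description of the letters and does not show binding.

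The other Hsp70 genes ran from -0.65 to 1.41. Hspa8, the main Hsp70 of the unstressed cytosol, read 3010 and 3190 in CD8α+ cells, against 3500 and 5010 in CD8α− cells, a difference of -0.44 ± 0.35 with an adjusted p of 0.564, which turned to 0.14 with signals as deposited or centred on the median. Of its other probe sets, 1 read -0.97 ± 0.32 from much dimmer signals of 74.5 and 85.5, against 142 and 172 in CD8α− cells, and the rest read -0.07 and -0.31. The groups overlapped on 1 of the 4 Hspa8 probe sets. Hspa9, the Hsp70 of mitochondria, read 777 and 810 in CD8α+ cells, against 862 and 1800 in CD8α− cells. Its difference of -0.65 ± 0.47 was -0.12 against CD8α− replicate 1 and -1.18 against CD8α− replicate 2, and turned to 0.24 with signals as deposited. Hspa13, an Hsp70-like ATPase of microsomes, differed by 0.06 ± 0.31, and Hspa2, known for its role in sperm formation, by 0.45 ± 0.41.

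Hspa14, a ribosome-associated Hsp70, read 353 and 297 in CD8α+ cells, against 188 and 79.7 in CD8α− cells. The difference was 1.41 ± 0.52 (2.65-fold, adjusted p = 0.315), and the arrays of the groups did not overlap. Another Hspa14 probe set differed by only 0.05 ± 0.35, with 219 and 215 in CD8α+ cells, against 176 and 251 in CD8α− cells, so the gene's probe sets disagree.

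Of the Hsp110 genes, whose products exchange the nucleotide of Hsp70, Hsph1 read 2150 and 2510 in CD8α+ cells, against 1640 and 2640 in CD8α− cells, a difference of 0.16 ± 0.39 with overlapping groups. Its dimmer probe set read 0.96 ± 0.49 and did not overlap. Hspa4 read 1200 and 1280 in CD8α+ cells, against 1250 and 1320 in CD8α− cells (-0.04 ± 0.31). Hspa4l disagreed with itself, since its 5 probe sets ran between -0.50 and 1.21, and 2 of the 5 were below 0. Among the 10 tested of 13 Hsp70 and Hsp110 genes, 3 were higher at an unadjusted p under 0.05 (Hspa1a, Hspa1b and Hspa14) and none was lower, with a median of 0.11. These shares, 30.0% and 0.0%, stand beside 7.13% and 8.82% of all tested genes. Hspa1a and Hspa1b count there as 2 genes but may not be separate measurements, and the other tested Hspa14 probe set read 0.05.

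**Figure D2:**
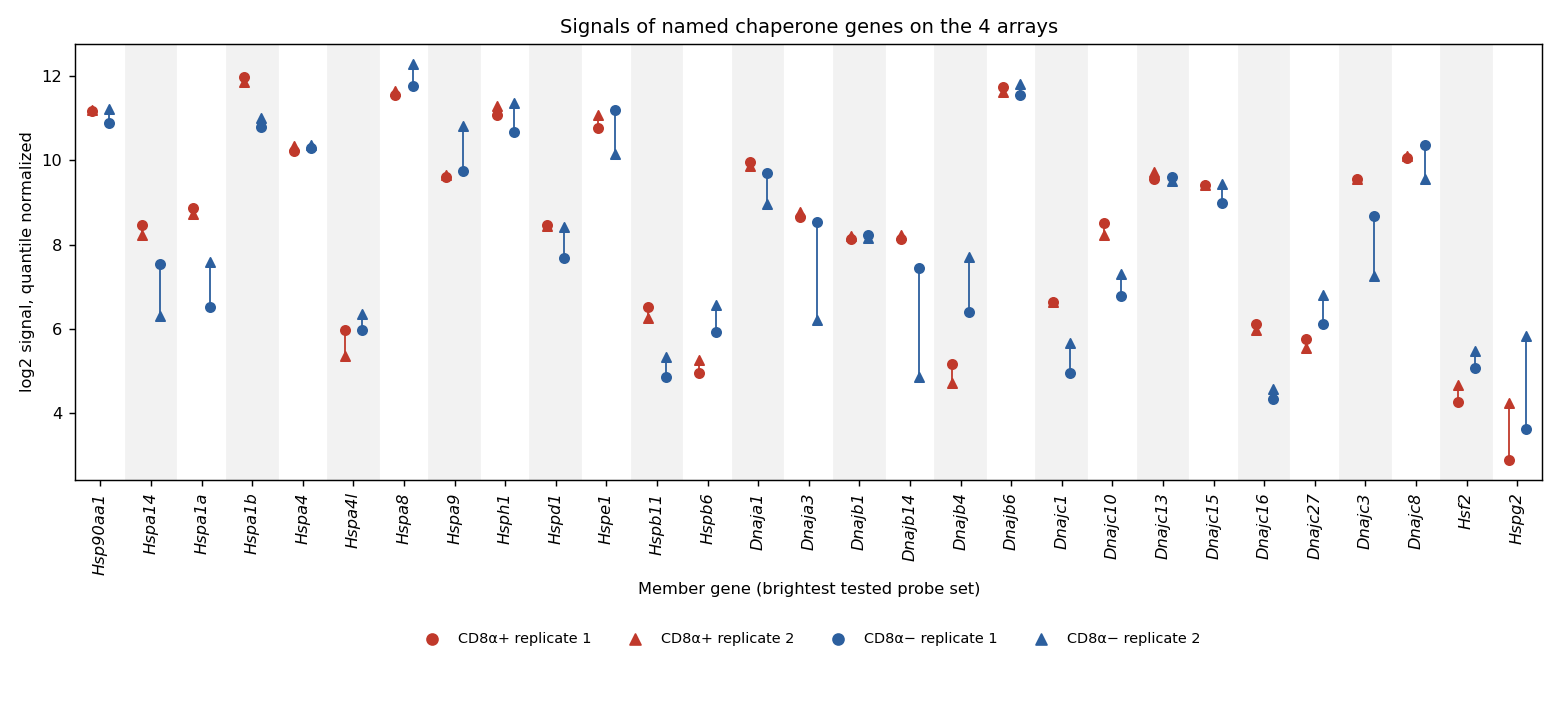
Normalized log2 signals (y axis) of 29 named member genes (x axis) on the 4 arrays, with CD8α+ arrays in red to the left of CD8α− arrays in blue, circles for replicate 1 and triangles for replicate 2. Hspa1a, Hspa1b and Dnajc16 show both red points above both blue points, and Dnajb14 and Dnaja3 show a long blue line between the CD8α− replicates.

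Hsp90aa1, the stress-inducible form of cytosolic Hsp90, overlapped between the groups on its representative probe set. It read 2280 and 2360 in CD8α+ cells, against 1880 and 2370 in CD8α− cells, a difference of 0.14 ± 0.32. A probe set with 1450 and 1470 in CD8α+ cells, against 1840 and 2860 in CD8α− cells, gave -0.65 ± 0.37, and another gave 0.61 ± 0.69. That last probe set, the dimmest of the 3 tested, read 215 on CD8α− replicate 2 and 775 on CD8α− replicate 1, with 623 and 626 on the CD8α+ arrays. The sign of the Hsp90aa1 difference thus depended on the probe set.

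Of the chaperonin genes, Hspd1 read 357 and 350 in CD8α+ cells, against 206 and 344 in CD8α− cells (0.41 ± 0.39), with the lowest CD8α+ array above the highest CD8α− array. Hspe1 read 1740 and 2150 in CD8α+ cells, against 2340 and 1130 in CD8α− cells (0.25 ± 0.48), and the groups overlapped. The genes lie head to head on chromosome 1. A RefSeq start of Hspd1 on the minus strand and that of Hspe1 on the plus strand have windows that share 285 of 300 bases. Their common stretch is shown with that of Dnajb6, since both hold a heat shock element of 3 units (GAANNTTCNNGAA or TTCNNGAANNTTC, both strands, which contain elements of 2 units), beside differences of 0.25 for Hspe1 and 0.01 for Dnajb6.
Hspe1 (chr1:55087898-55088147, + strand): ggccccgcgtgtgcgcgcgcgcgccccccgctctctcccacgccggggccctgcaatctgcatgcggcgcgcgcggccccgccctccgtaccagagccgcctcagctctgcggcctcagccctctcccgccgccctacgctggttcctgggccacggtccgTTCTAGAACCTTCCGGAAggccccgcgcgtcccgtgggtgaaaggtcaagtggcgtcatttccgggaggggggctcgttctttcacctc
Dnajb6 (chr5:29735648-29735897, + strand): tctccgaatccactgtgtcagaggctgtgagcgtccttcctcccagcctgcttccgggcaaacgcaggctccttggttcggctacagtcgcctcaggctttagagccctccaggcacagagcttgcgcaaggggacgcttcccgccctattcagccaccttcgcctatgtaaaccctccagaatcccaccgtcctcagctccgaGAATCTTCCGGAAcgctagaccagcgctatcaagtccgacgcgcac
Capitals mark the heat shock elements, which run over 18 and 13 bases. Elements of 3 units were found in 6 of 74 member windows (8.11%), beside 0.603% of all 32851 windows. By gene the shares were 7.02% of 57 members and 0.662% of all genes. The genes that held the elements were Dnajb6, Hspd1, Hspe1 and Hsph1, with representative differences of 0.01, 0.41, 0.25 and 0.16. Windows of Dnajb6 overlap, as do those of Hsph1, and those of Hspd1 and Hspe1 with an element share most bases. The windows are thus not separate sites. CCAAT boxes (CCAAT, both strands) stood in 37.8% of member windows and 37.4% of all, and the TATA box (TATAAA, both strands) in 4.05% and 13.6%.

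Small heat shock proteins were mostly too dim to test. Of 8 genes that begin with Hspb, 5 were not tested, among them Hspb1, a heat-inducible member, whose brighter probe set read 2.96 and 28.8 in CD8α+ cells, against 40.8 and 5.71 in CD8α− cells. Each group thus held 1 array above background and 1 below it. Hspb6, known as a small heat shock protein of muscle, read 31.0 and 38.4 in CD8α+ cells, against 61.2 and 94.8 in CD8α− cells. That was a difference of -1.14 ± 0.38 (2.21-fold brighter in CD8α− cells, adjusted p = 0.287), with no overlap between the groups. Hspb2 read 30.2 and 29.8 in CD8α+ cells, against 37.3 and 8.55 in CD8α− cells, and was above background on 1 array of each group. Hspb11, the transport protein, went the other way, with 92.1 and 77.0 in CD8α+ cells, against 29.1 and 40.8 in CD8α− cells (1.29 ± 0.35, 2.44-fold, adjusted p = 0.240). Its other probe set read -0.42 ± 0.79.

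The 4 class A J proteins, which resemble the bacterial DnaJ most, had differences from 0.59 to 1.35 on their representative probe sets, and none was called. Dnaja1, a partner of cytosolic Hsp70, read 994 and 938 in CD8α+ cells, against 825 and 497 in CD8α− cells (0.59 ± 0.39), while its other probe sets gave 0.01 and -0.21. Dnaja2, likewise a cytosolic partner of Hsp70, read 603 and 669 in CD8α+ cells, against 860 and 185 in CD8α− cells. Its difference of 0.67 ± 0.80 was -0.44 against CD8α− replicate 1, and its other tested probe sets gave -0.14, -0.37 and 0.06. For Dnaja3, the mitochondrial J protein, the signals were 401 and 440 in CD8α+ cells, against 369 and 73.8 in CD8α− cells. The difference of 1.35 ± 0.83 was 0.19 against CD8α− replicate 1 and 2.51 against CD8α− replicate 2. The class as a whole showed the same split, with median differences of 0.05 and 2.14 against these arrays.

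Class B J proteins held the highest and the lowest member difference. Dnajb14, an ER membrane J protein that takes part in disposal of misfolded protein, read 282 and 298 in CD8α+ cells, against 175 and 29.2 in CD8α− cells. The groups did not overlap, but the difference of 2.02 ± 0.92 (adjusted p = 0.376) was 0.73 against CD8α− replicate 1 and 3.31 against CD8α− replicate 2, and the gene's other probe set gave 0.29 ± 0.36.

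Dnajb4, a heat-inducible partner of Hsp70, read 35.9 and 26.3 in CD8α+ cells, against 85.1 and 208 in CD8α− cells. It was 4.32-fold brighter in CD8α− cells, with a difference of -2.11 ± 0.55 and an adjusted p of 0.224, and the groups did not overlap. A dimmer probe set read -1.54 ± 0.68 (at least 1.48-fold brighter in CD8α− cells). The last one, with 39.1 and 30.0 in CD8α+ cells, against 34.2 and 7.62 in CD8α− cells, read 1.08 ± 0.79. Dnajb4 was the 1 member gene whose probe sets spanned over 2 log2 units.

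Dnajb1, the classical heat-inducible J protein, differed by -0.04 ± 0.30, with 280 and 294 in CD8α+ cells, against 301 and 288 in CD8α− cells, and the groups overlapped. Dnajb6, which suppresses protein aggregation, overlapped too, with 3400 and 3170 in CD8α+ cells, against 2970 and 3570 in CD8α− cells (0.01 ± 0.32). Another Dnajb6 probe set read 140 and 140 in CD8α+ cells, against 300 and 375 in CD8α− cells, a difference of -1.26 ± 0.32 with no overlap. Platform names do not say which transcripts these probe sets read.

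Among class C J proteins, which share little beyond the J domain, 4 of 22 tested genes were higher at an unadjusted p under 0.05 and none was lower (18.2% and 0.0%, beside 7.13% and 8.82% of all tested genes). The 4 are Dnajc1, Dnajc3, Dnajc10 and Dnajc16, known as J proteins of the ER. Dnajc16 read 69.3 and 63.3 in CD8α+ cells, against 20.5 and 23.9 in CD8α− cells, where neither array was above background. Its CD8α− mean lay under the filter on dim probe sets, so it was tested only through the CD8α+ arrays where it is bright, and its p is no support for a difference. The difference was 1.58 ± 0.31 (at least 2.12-fold, adjusted p = 0.170), and it was 1.69 and 1.47 against CD8α− replicates 1 and 2. A Dnajc16 probe set too dim to test read 39.9 and 30.4 in CD8α+ cells, against 2.68 and 2.89 in CD8α− cells.

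Dnajc10, an ER reductase that breaks disulfide bonds of misfolded proteins, read 365 and 303 in CD8α+ cells, against 110 and 158 in CD8α− cells. The difference of 1.34 ± 0.36 (2.52-fold, adjusted p = 0.237) was 1.60 and 1.07 against the separate CD8α− arrays. Other Dnajc10 probe sets gave 2.27 ± 0.85 and 0.37 ± 0.54. Dnajc1, an ER membrane J protein that also binds ribosomes, read 101 and 99.6 in CD8α+ cells, against 31.2 and 50.9 in CD8α− cells (1.33 ± 0.38, 2.51-fold, adjusted p = 0.252). Its 5 tested probe sets all lay above 0, between 0.01 and 1.58.

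Dnajc3, the ER co-chaperone p58IPK, read 755 and 756 in CD8α+ cells, against 413 and 154 in CD8α− cells, a difference of 1.58 ± 0.56 (2.99-fold, adjusted p = 0.304). Against CD8α− replicate 1 it was 0.87 and against CD8α− replicate 2 it was 2.29. A second Dnajc3 probe set had CD8α− arrays close to each other, with 191 and 200 in CD8α+ cells, against 69.2 and 70.3 in CD8α− cells. It gave 1.49 ± 0.30 (2.81-fold, adjusted p = 0.173). The remaining 3 read -0.07, 0.65 and 0.74. The stretch before the Dnajc3 start is shown because its window was the only member window with an ER stress element (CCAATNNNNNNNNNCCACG, both strands), which is known to bind factors of the unfolded protein response.
Dnajc3 (chr14:118937682-118937931, + strand): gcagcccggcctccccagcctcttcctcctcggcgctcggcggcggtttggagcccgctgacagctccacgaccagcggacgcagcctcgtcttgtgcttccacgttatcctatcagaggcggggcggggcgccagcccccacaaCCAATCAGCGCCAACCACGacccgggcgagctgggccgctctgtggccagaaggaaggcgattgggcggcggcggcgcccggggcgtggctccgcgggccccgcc
Capitals mark the element, which was found in 39 of all 32851 windows (0.119%). Its first letters also make up a CCAAT box.

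The members were also placed by compartment, a grouping made after the values were seen that carries no test. The ER list held 10 members (Dnajb9, Dnajb11, Dnajb12, Dnajb14, Dnajc1, Dnajc3, Dnajc10, Dnajc16, Dnajc18 and Hspa13). All 10 had a difference above 0, from 0.06 to 2.02, with a median of 1.0. The list was not complete, since the ER proteins Dnajc25 and Dnajc14 were left out of it. Dnajc25 differed by -0.21 ± 0.31, with both CD8α+ arrays below both CD8α− arrays, and Dnajc14 by 0.06 ± 0.33 with overlapping groups. The counts below cover the 10 listed genes alone. After scaling to a common trimmed mean 8 of 10 were above 0, and 9 of 10 were above the median of all genes. The groups did not overlap for 7 of the 10, against 25.6% of all tested genes in that direction, and 22 of their 24 tested probe sets were above 0. Dnajc16, which counts among the 10 and the 7, was tested only through the CD8α+ arrays where it is bright. Since the group was picked with its values known, these counts are no support for a difference. Over all tested features, 5151 of 10532 genes and 11416 of 22519 probe sets were above 0. Against CD8α− replicate 1 alone all 10 were above 0 (median 0.80), and against CD8α− replicate 2 alone 8 of 10 were (median 1.02). Dnajb11, which works with the ER Hsp70, read 517 and 453 in CD8α+ cells, against 218 and 419 in CD8α− cells (0.68 ± 0.44). Dnajb9, an ER stress-induced J protein, read 647 and 605 in CD8α+ cells, against 586 and 272 in CD8α− cells (0.65 ± 0.48).

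The 7 members known to reside in mitochondria (Hspd1, Hspe1, Hspa9, Dnaja3, Dnajc11, Dnajc15 and Dnajc30) had a median of 0.25, with 6 above 0, and none was called at an unadjusted p under 0.05. Against CD8α− replicate 1 their median was 0.09, and 4 of 7 were above 0. Dnajc15, a mitochondrial J protein, read 679 and 680 in CD8α+ cells, against 505 and 688 in CD8α− cells (0.21 ± 0.34). Of the other class C members, Dnajc8, a nuclear protein, differed by 0.11 ± 0.40 and the endosomal Dnajc13 by 0.08 ± 0.31. Dnajc27, a small GTPase with a J domain, had the lowest difference of its class, with 54.1 and 46.9 in CD8α+ cells, against 69.0 and 112 in CD8α− cells (-0.80 ± 0.39).

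**Figure D3:**
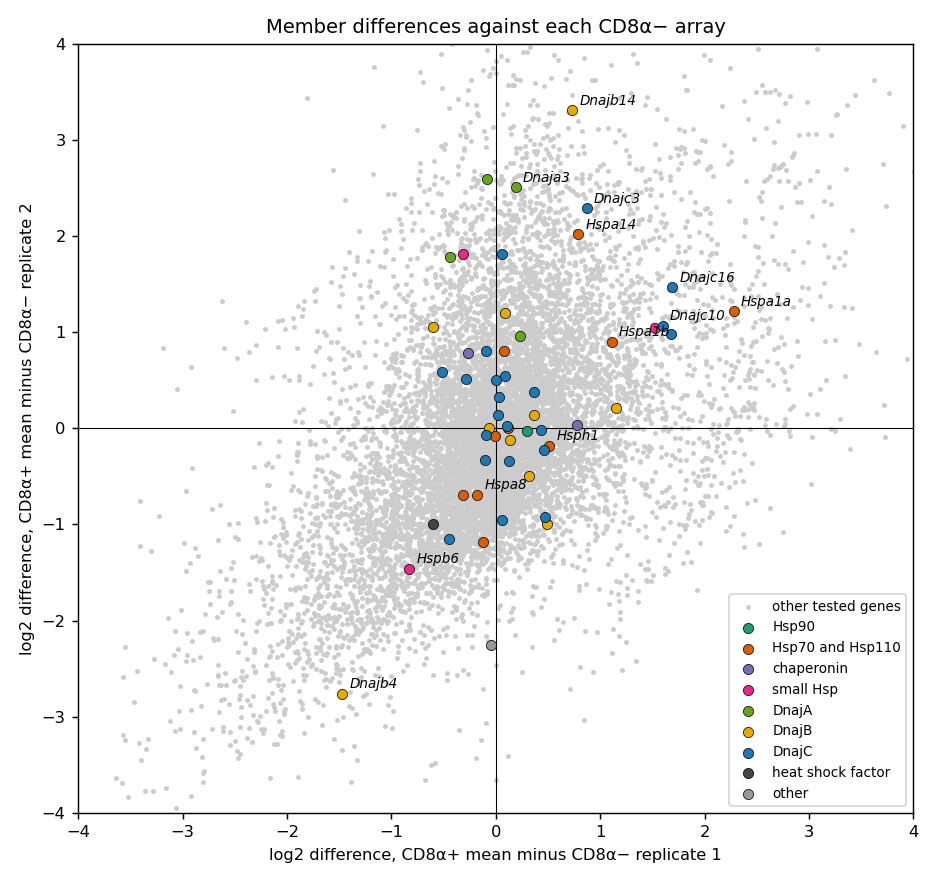
Log2 difference of the CD8α+ mean from CD8α− replicate 1 (x axis) and from CD8α− replicate 2 (y axis) for the 54 member genes, coloured by class, over the other tested genes in grey (60 genes lie beyond the axis limits of 4). Hspa1a, Hspa1b, Dnajc16 and Dnajc10 lie well above 0 on both axes, whereas Dnaja3 lies near 0 on the x axis and at 2.51 on the y axis.

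The agreement between the CD8α− arrays can be counted over all members. The CD8α+ mean lay above both CD8α− arrays for 22 of 54 member genes (40.7%) and below both for 12 (22.2%), and it lay between them for 20 (37.0%). Among all tested genes these shares were 30.6%, 35.6% and 33.8%.

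Hsf2, the heat shock factor measured here, was dim, with 19.4 and 25.5 in CD8α+ cells, against 33.8 and 44.3 in CD8α− cells. Both CD8α− arrays lay above both CD8α+ arrays, with a difference of -0.80 ± 0.36 and an adjusted p of 0.370, and 1 CD8α+ array was not above background. Hsf2 passed the filter only through its CD8α− arrays, so neither its p nor this separation is support for a difference. The known targets of heat shock factor 1 did not move as a block. Of 14 listed genes 12 were tested, with 2 higher (Hspa1a and Hspa1b) and 1 lower (Dnajb4) at an unadjusted p under 0.05, or 16.7% and 8.33% beside 7.13% and 8.82% of all tested genes. Their median was 0.15, with 7 above 0 and 5 below it. Hspa1a and Hspa1b, the 2 higher genes, may not be separate measurements. Perlecan (Hspg2) was above background on 1 array, CD8α− replicate 2, and differed by -1.15 ± 0.91.

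Probe sets of the same gene often disagreed. In 30 member genes with several tested probe sets, the median span of the fitted difference was 1.04 log2 units, and in 16 of the 30 the probe sets had opposite signs. Measured against CD8α− replicate 1 alone the median span was 0.62, and against CD8α− replicate 2 alone it was 1.59. CD8α− replicate 2 is the array with the high Gapdh ratio, and the part of RNA quality in these spans was not tested. Every tested probe set lay above 0 in Hspa1b, Hspa14, Hspe1, Hsph1, Dnajb12, Dnajb14, Dnajc1, Dnajc10, Dnajc13, Dnajc14, Dnajc17 and Dnajc21. In Hspa8 and Dnajb1 every one lay below 0.

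**Figure D4:**
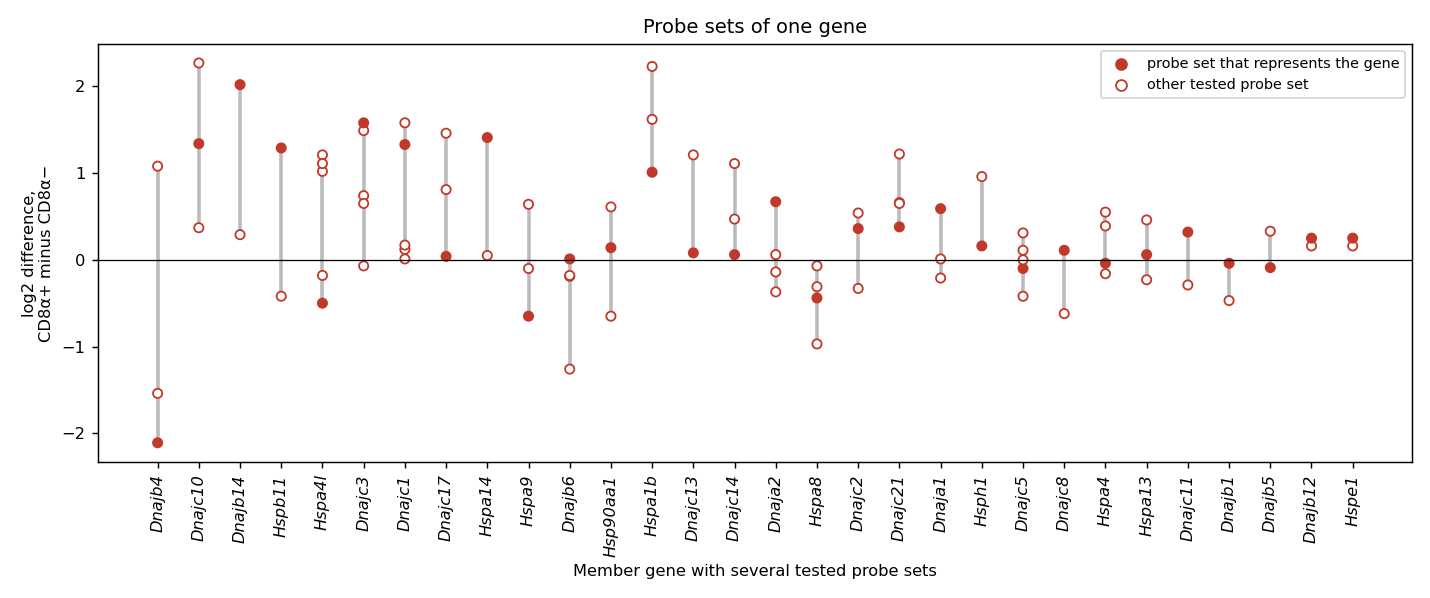
Fitted log2 differences (y axis, CD8α+ minus CD8α−) of each tested probe set in the 30 member genes with more than 1 (x axis, ordered by span), filled where the probe set represents the gene. Dnajb4 spans from -2.11 to 1.08 at the left, and all Hspa1b points lie above 0.

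Partner genes of the same machinery were read from lists outside the naming pattern. Of 38 cochaperones and cofactors 34 were tested, and 4 were higher and none lower at an unadjusted p under 0.05 (11.8%, beside 7.13% of all tested genes), with a median of 0.28. Bag3, a nucleotide exchange factor of Hsp70 that heat shock induces, read 73.8 and 70.6 in CD8α+ cells, against 26.8 and 2.30 in CD8α− cells, where neither array was above background. Bag3 too passed the filter only through its CD8α+ arrays, so its p is no support for a difference. Its difference was 2.40 ± 0.72, or at least 2.31-fold, with an adjusted p of 0.259. Fkbp4, an immunophilin of Hsp90 complexes, read 79.0 and 79.5 in CD8α+ cells, against 35.8 and 42.3 in CD8α− cells (1.03 ± 0.31, 2.04-fold, adjusted p = 0.264). The Hsp90-bound phosphatase Ppp5c differed by 1.36 ± 0.43. Hspbp1, an exchange factor of Hsp70 and the last of the 4, differed by 0.97 ± 0.35 and is named after its value was seen.

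The cytosolic TRiC chaperonin and its feeder prefoldin had a median below 0. Of 15 tested genes 1 was lower and none higher at an unadjusted p under 0.05, and the share of 6.67% lower was below the 8.82% of all tested genes. The median was -0.29, and it was -0.04 against CD8α− replicate 1 and -0.35 against CD8α− replicate 2. Pfdn2, a prefoldin subunit, read 167 and 168 in CD8α+ cells, against 288 and 567 in CD8α− cells (-1.27 ± 0.45), and Cct3, a TRiC subunit, read 1160 and 1230 in CD8α+ cells, against 898 and 584 in CD8α− cells (0.72 ± 0.37). The prefoldin subunit Pfdn4 differed by -0.62 ± 0.36.

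Immediate early genes respond to handling of isolated cells, as heat shock genes do, and are given beside them for that reason. All 22 listed genes were tested, with 2 lower and none higher at an unadjusted p under 0.05, and with a median of -0.42. The share of 9.09% lower was close to the 8.82% of all tested genes. Both CD8α+ arrays lay below both CD8α− arrays for 12 of the 22 (54.5%, beside 28.3% of all tested genes). Fosl2 read 989 and 1080 in CD8α+ cells, against 2400 and 3890 in CD8α− cells (-1.57 ± 0.38, adjusted p = 0.210), and Ier2 read 137 and 137 in CD8α+ cells, against 276 and 353 in CD8α− cells (-1.19 ± 0.33). The nuclear receptor Nr4a1 differed by -1.09 ± 0.42, and Fos, with 3900 and 3750 in CD8α+ cells, against 4010 and 1130 in CD8α− cells, by 0.84 ± 0.68. The immediate early genes therefore had a median opposite in sign to that of Hspa1a and Hspa1b, and the part of handling in either difference was not tested.

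The 16 member genes that were not tested had low signals on every probe set. Their highest mean signal over the 4 arrays ran from 4.31 for Dnajb3, a J protein gene known from testis, to 20.6 for Dnajc6, the uncoating factor auxilin, against the filter of 23.0. They were Dnajb3, Dnajb7, Dnajb13, Dnajc5b, Dnajc5g, Dnajc6, Dnajc22, Dnajc24, Hspa1l, Hspa12a, Hspa12b, Hspb1, Hspb3, Hspb7, Hspb8 and Hspb9.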

How the data were processed

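Each array has 1 linear intensity per probe set, which the authors computed with MAS5, per the submitters' processing notes. No source used here gives a scaling target or detection calls. The labels' protocols (Trizol, cRNA) and the design text (RNeasy, amplified cDNA) describe the RNA work differently.

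Because deposited medians ran from 17.4 to 35.1, intensities were quantile normalized on the log2 scale. Values under 6.99, the 25th percentile, were set to it, and probe sets averaging at least the median of 23.0 were tested with limma 3.58.1 (R 4.3.3, lmFit and eBayes, two-sided). Benjamini-Hochberg adjustment ran over 22519 probe sets. The test had 2 residual and 2.48 prior degrees of freedom. It was run on simulated data with less spread than these arrays and the same spread for every probe set. That check does not show how the test performs on the arrays themselves. Tables and figures used Python 3.11.15, pandas 2.3.3 and matplotlib 3.10.9. The tested probe set with the highest mean stands for its gene, _x_at names being used only where no other exists.

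The brightest of 27 Bacillus controls was taken as an array's background (30.8 and 21.8 on the CD8α+ arrays, against 28.3 and 34.5 on the CD8α− arrays, normalized). A fold is given as "at least" where the dimmer group had no array above it, taking per array whichever was larger, background or signal. Of 45037 probe sets, 34945 had 1 gene symbol, 932 several and 9160 none, and all 168 members matched RefSeq with 0 symbols changed. The number of arrays limits the precision.

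Named members were the 12 brightest, the 12 of lowest p, the heat shock factor 1 targets, the extremes of each class and genes whose probe sets span over 2 log2 units, plus Hspg2 and Hspb11. Partner lists name the 3 genes of lowest p. Hspa2, Hspa13, Hspb2, Hspb1, Dnaja2, Dnajb9, Dnajb11, Dnajc14, Dnajc25, Fos and the single marker genes were picked after their values were seen. So were both compartment groups and the ER stress element. The members and lists were chosen with earlier results of these data known. Alternatives were other scalings, floors, filters and variance models, a replicate block, gene means and leaving out each array. Same-numbered arrays did not deviate together (correlation 0.0311 across probe sets), so replicate numbers were not taken as pairs.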

Additional observations from a re-analysis of the deposited data

How the results depend on the processing

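Counts are at an unadjusted p under 0.05, higher then lower, unless said otherwise, and the cause of the shifts was not tested. Signals as deposited gave 454 lower among all probe sets, 1 lower among member probe sets and 1 among member genes, with a member median of 0.99 where all genes had 0.66. A common trimmed mean gave 3784, 7 and 4 lower, with all genes at -0.18. Median centring gave 406 probe sets at an adjusted p under 0.05 (1 member probe set, 1 member gene, Hspa1a at 0.0486), 6018 and 855 in all, 41 and 1 member probe sets, 23 and 1 member genes and a member median of 1.01, with all genes at 0.67. No filter gave 3256 and 3299 in all. The stricter filter gave 37 at an adjusted p under 0.05, 1010 higher in all, 9 higher member probe sets, and 5 and 1 member genes. An intensity trend gave 60 at an adjusted p under 0.05. With the replicate block, 14 probe sets passed the adjusted p, none of them a member, and member genes gave 8 and 1. Replicate numbers do not pair these arrays. Averaging all tested probe sets of a gene left 1 lower member gene.

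Leaving out each array in turn, all probe sets gave 0 to 2887 at an adjusted p under 0.05, 465 to 5397 higher and 656 to 4330 lower. Member probe sets gave 0 to 21, 0 to 33 and 0 to 20, member genes gave 0 to 10, 0 to 18 and 0 to 9, and the member median ran from 0.09 to 0.22. The lone array was assumed to vary like the other group, so these counts are no result about the members. All the highest counts came without CD8α− replicate 1.

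Hspa1a and all 3 Hspa1b probe sets stayed above 0 in 12 of 12 alternatives, but most of these could not change the sign. The other floor and filters, the intensity trend and the replicate block returned the main differences. Since the groups did not overlap, leaving out an array could not change the sign either. Under the other scalings, which could, Hspa1a ran from 1.89 to 2.7, and the lowest Hspa1b difference was 0.92. Apart from the fits that leave out an array, adjusted p ran from 0.0486 to 0.377. Of 29 named members, 12 changed sign somewhere. With signals as deposited Dnajb1 was 0.94, Hspa4 0.85, Hspa8 0.14 and Hspa9 0.24, and with median centring these were 0.94, 0.85, 0.14 and 0.25. With a trimmed mean Dnajb1 was 0.13, Dnajb6 -0.12 and Hspa4 0.04. Averaging probe sets gave -0.40 for Dnajb6, -0.26 for Dnajc8, 0.18 for Hspa4 and 0.53 for Hspa4l. Leaving out arrays, Dnajb6 ran from -0.12 to 0.14, Dnajc13 from -0.01 to 0.17, Dnajc15 from -0.02 to 0.43, Dnajc8 from -0.29 to 0.51, Hsp90aa1 from -0.03 to 0.30, Hspa4 from -0.09 to 0.00, Hspe1 from -0.27 to 0.78 and Hsph1 from -0.18 to 0.51. Genes near background, such as Hspb2, Hsf2 and Hspg2, are limited by signal.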
